A study of Rattus norvegicus with 8 samples.

Results

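This section describes 10 genes of heme breakdown, metal binding and antioxidant defence in rat nerve, spinal cord and Schwann cells: Hmox1, Mt1, Mt2A, Srxn1, Nqo1, Gclc, Gclm, Txnrd1, Fth1 and Tfrc. The set was drawn up with earlier results of these data known. Each was found by matching the accession of an array probe to its RefSeq symbol, and where a gene had several probes the one brightest on average across all samples stood for it. Of the 10 genes, 9 had values among the 12765 gene symbols in the authors' value table, and the probe of Gclm was measured only in the scanner files.

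Each of the 8 groups gave total RNA for 1 Agilent array of a single colour, so no difference has a replicate check and no test was possible. The nerve samples were the distal and the proximal segment of the left sciatic nerve, 1 day after it was cut, and the uncut nerve of the right side, called contralateral here, whose label mentions a PBS injection site. Cord tissue of day 5 carried the labels dorsal hemisection and C-level control. Its labels count the days after an injection, while the protocol counts them after an injury, and neither names an injected agent. RNA of 3 animals was pooled for every nerve and cord array, from adult female Sprague-Dawley rats of 200 to 225 g. The Schwann cells, the myelin-forming glia of peripheral nerve, were grown from nerves of Sprague-Dawley pups aged 1 to 3 days and used at passages 3 to 7 in medium with 10% serum and 4 µM forskolin. They received S100A8/A9, a complex of a pair of leukocyte proteins, at 5 µg/ml for 1 h or for 24 h, or were left unstimulated for 24 h, so that the same culture stood against both times. No genetic change is labelled in any group.

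All 8 arrays lay on 1 slide, and the share of the 30367 probes with signal well above background ran from 66.7% to 77.6% by array. The column headings of the deposited table give each sample its name here. The scan that ranks its probes as a column does was recorded under another sample for 7 of the 8 columns, so every direction below rests on the headings. With the scans taken as recorded, 11 of the 17 differences of at least 2-fold described here had the opposite sign. Only 1 remained at least 2-fold in the same direction. Some reversed ones were large, as Mt2A at -7.12 for the scans recorded as proximal and contralateral nerve. These 2 scans rank as the columns headed Schwann cells at 1 h and dorsal hemisection cord. By the headings, -7.12 is therefore a difference between other tissues and not within the nerve. By the headings, the summed level of 9 neuron markers was 16.11 and 17.42 (log2) in the 2 cord samples, against 11.43 to 12.35 in the 3 nerve samples. All 11 markers of myelinating Schwann cells were above background in the 3 cultures, as in the nerve and cord samples. Of 12 macrophage markers 5 were above background in each culture, namely Cd68, Csf1r, Cd14, Adgre1 and C1qb (13.07 to 14.27 for C1qb), and the other 7 were not. Such markers do not test labels within 1 tissue.

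Heme oxygenase 1, encoded by Hmox1, opens the heme ring and releases biliverdin, carbon monoxide and iron. The iron is bound by ferritin, of which Fth1 encodes the heavy chain, while Tfrc encodes the transferrin receptor through which cells take iron up. The transcription factor NRF2 (Nfe2l2), held back by KEAP1 and opposed by BACH1, drives many antioxidant genes, among them Hmox1, Srxn1, Nqo1, Gclc, Gclm and Txnrd1. Metallothioneins are small cysteine-rich proteins that bind zinc and copper, and their genes respond to the metal sensor MTF1 and to glucocorticoids. In a cut nerve, infiltrating leukocytes and the resident glia break down myelin and extravasated blood, which brings heme and iron into play.

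The upstream sequences of the 2 metallothionein genes and of Srxn1 are shown because these members were all at least 2-fold higher in the injured nerve segments. RefSeq promoters were at hand for 8 of the members, in build GRCr8, of which the 250 bases before the start site were searched on both strands. The 2 metallothionein genes lie beside each other on the minus strand of chromosome 19, with 5733 bases between their start sites. Each sequence reads 5′ to 3′ in the direction of its gene. The motifs were chosen after values were seen, and the AP-1 site was put in capitals in Srxn1 once its window held no antioxidant response element. In Mt1 and Mt2A the capitals mark the metal response element core TGCACNC or TGCGCNC, and in Srxn1 the AP-1 site TGANTCA.
Mt1, chr19:10832976-10833225, minus strand: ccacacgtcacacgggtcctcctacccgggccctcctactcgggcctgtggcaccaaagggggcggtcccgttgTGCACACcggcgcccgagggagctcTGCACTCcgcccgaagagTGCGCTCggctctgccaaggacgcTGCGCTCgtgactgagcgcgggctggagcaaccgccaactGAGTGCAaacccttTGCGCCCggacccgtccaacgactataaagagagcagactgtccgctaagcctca
Mt2A, chr19:10838709-10838958, minus strand: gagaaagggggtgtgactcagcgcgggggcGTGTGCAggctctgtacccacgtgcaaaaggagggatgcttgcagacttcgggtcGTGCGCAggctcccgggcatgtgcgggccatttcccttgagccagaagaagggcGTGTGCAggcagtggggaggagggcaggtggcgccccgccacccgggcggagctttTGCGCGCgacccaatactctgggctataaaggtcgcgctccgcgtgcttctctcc
Srxn1, chr3:161064562-161064811, plus strand: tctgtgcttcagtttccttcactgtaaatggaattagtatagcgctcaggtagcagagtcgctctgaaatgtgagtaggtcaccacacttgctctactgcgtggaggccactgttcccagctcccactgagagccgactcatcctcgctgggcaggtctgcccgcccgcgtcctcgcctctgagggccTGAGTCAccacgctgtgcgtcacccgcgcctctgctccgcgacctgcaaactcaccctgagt

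The metal response core occurred 6 times upstream of Mt1 and 4 times upstream of Mt2A. It was found at least 1 time in 20.6% of 33465 upstream windows of the same length and at least 4 times in 0.263% of them. Tfrc held 3 matches, of which 2 overlapped, and Gclm 2, while Srxn1, Nqo1, Gclc and both windows of Txnrd1 held none. The core of the antioxidant response element, TGACNNNGC, was present in 10.1% of windows. It occurred 1 time each in Mt1, Mt2A and Gclm and in 1 of the 2 windows of Txnrd1, and not in those of Srxn1, Nqo1, Gclc and Tfrc. In Mt2A this match shares its bases with an AP-1 site, a motif found in 6.34% of windows. These are matches of letters and not measured binding sites.

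In both injured nerve segments Hmox1, the 2 metallothionein genes and Srxn1 were at least 2-fold higher than in the contralateral nerve. Hmox1 had a log2 value of 14.32 in the distal and 13.93 in the proximal segment, against 10.18 in the contralateral nerve. The difference was 4.13 ± 0.03 distally and 3.74 ± 0.03 proximally, or 17.6-fold and 13.4-fold. Here and below the figure after ± is a technical error, from the spread of replicate spots of like brightness on the 2 arrays, and covers no difference between animals. Hmox1 ranked 75th from the top among 12131 genes in the distal comparison and 120th among 12242 in the proximal one. Both comparisons share the contralateral array, so they are not independent of each other.

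Mt2A had values of 16.85 in the distal and 16.84 in the proximal segment, against 13.58 in the contralateral nerve. Its difference was 3.27 ± 0.03 distally and 3.26 ± 0.03 proximally, about 9.64-fold and 9.60-fold. A second Mt2A probe gave 2.74 and 2.87. Mt1 stood at 15.86 in the distal and 15.93 in the proximal segment, against 14.42 in the contralateral nerve, a difference of 1.44 ± 0.07 and 1.52 ± 0.07. Both metallothionein genes were thus higher in each injured segment, and the 2 segments lay close together.

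Srxn1 encodes sulfiredoxin, which repairs peroxiredoxins that have been overoxidised. Its values were 11.12 in the distal and 11.22 in the proximal segment, against 9.60 in the contralateral nerve. The difference was 1.51 ± 0.07 distally and 1.62 ± 0.07 proximally. Across all 8 samples the contralateral nerve had the lowest value of Srxn1.

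The other antioxidant enzymes of the set were within 2-fold. Gclc, the catalytic subunit of the enzyme that limits glutathione synthesis, had 11.79 in the distal and 11.48 in the proximal segment, against 10.89 in the contralateral nerve. This gave 0.90 ± 0.07 and 0.58 ± 0.07. The quinone reductase gene Nqo1 was on the other side, with 8.73 and 8.75 in the distal and proximal segments, against 9.20 in the contralateral nerve (-0.47 ± 0.08 and -0.46 ± 0.08). Txnrd1, which encodes the cytosolic thioredoxin reductase, had differences of 0.31 ± 0.08 and 0.57 ± 0.08, while a dimmer second probe gave 1.07 and 1.35. So genes known as NRF2 targets did not share 1 direction in the injured nerve.

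Of the iron genes, Fth1 had 18.09 in the distal and 18.20 in the proximal segment, against 18.59 in the contralateral nerve. Its difference was -0.50 ± 0.07 distally and -0.39 ± 0.07 proximally. Its spots were not saturated on any array. Tfrc had 12.03 and 12.02 in the distal and proximal segments, against 11.39 in the contralateral nerve, or 0.64 ± 0.07 in each. Its second, much dimmer probe gave 1.62 and 1.54, so that the mean of both probes passed 2-fold (1.13 and 1.09).

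In all, 4 of 9 measured members were at least 2-fold higher in the distal segment, where 13.9% of all genes were, and 0 of 9 were at least 2-fold lower, where 14.3% were (28.2% either way). In the proximal segment the counts were also 4 and 0, beside 11.7% and 11.9% of all genes (23.5% either way). The median difference of the members was 0.90 distally and 0.64 proximally, while that of all genes was 0.01 and -0.01. Because Hmox1, Mt1, Mt2A and Srxn1 were known to stand out when the set was drawn up, these counts describe the members and support nothing further.

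**Figure D1:**
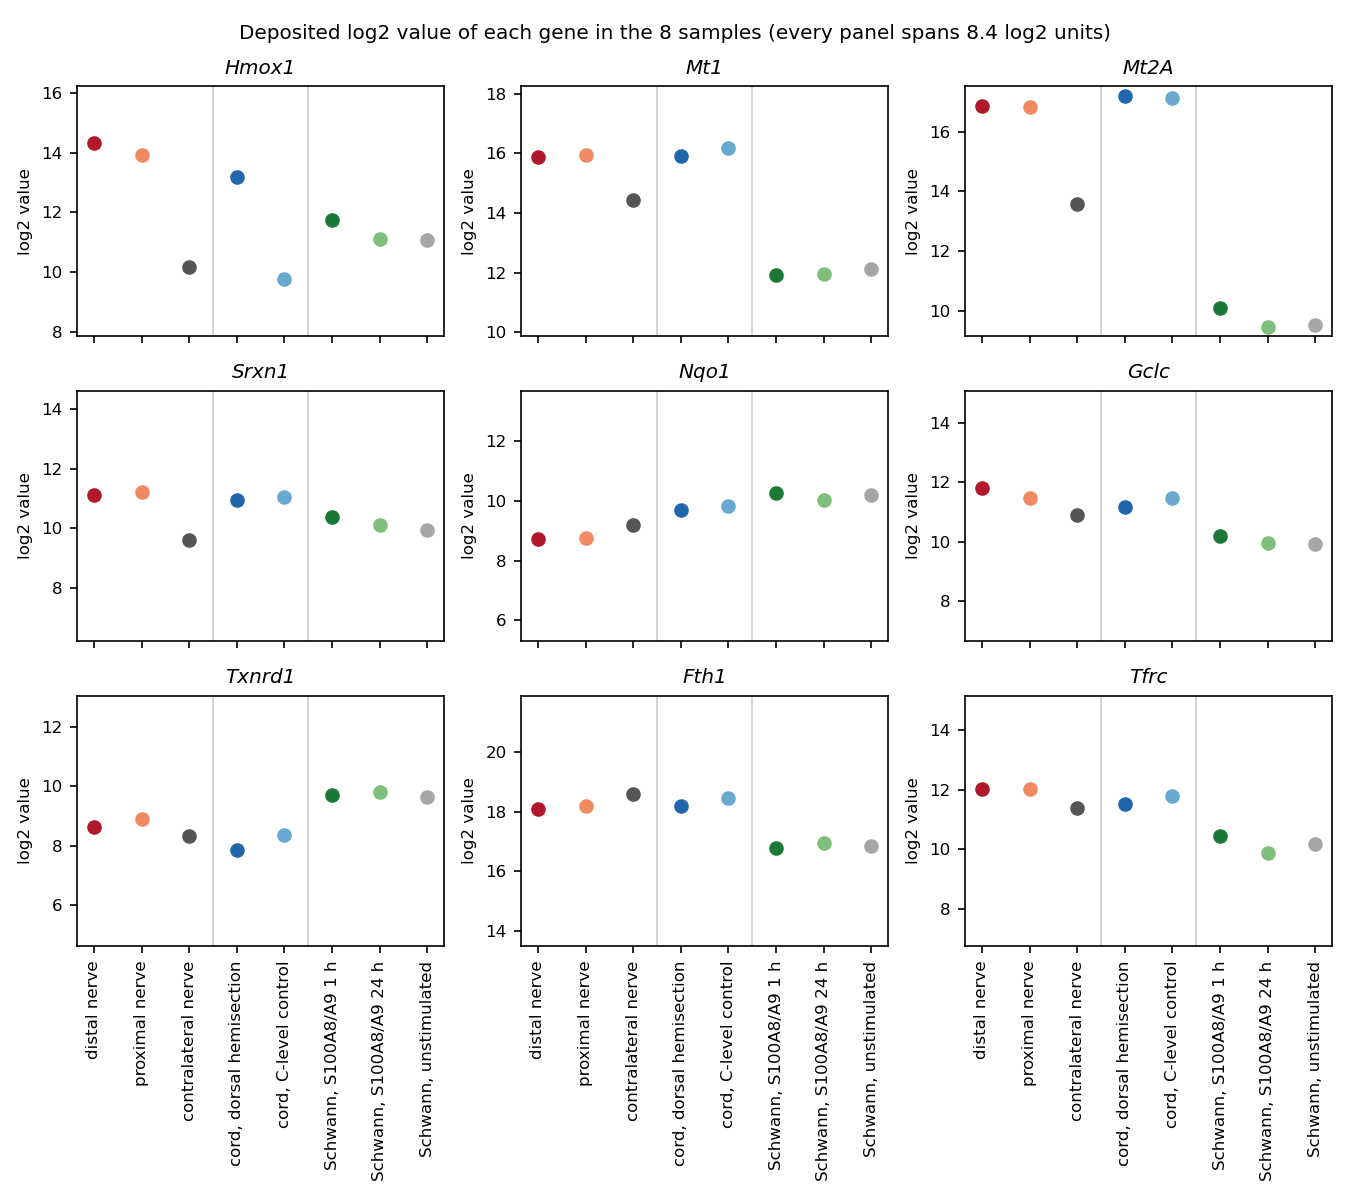
Deposited log2 values (vertical axes) of the 9 genes in the 8 samples (horizontal axis), 1 array each, with bars for the technical SD, which are mostly smaller than the points. Hmox1 is high in the distal nerve (14.32), the proximal nerve (13.93) and the dorsal hemisection cord (13.19), while Mt1 and Mt2A are high in the injured nerve segments and in both cord samples and low in the 3 cultures.

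Leukocyte markers differed between the same samples. As above, 13.9% of all genes were at least 2-fold higher and 14.3% lower distally, and 11.7% and 11.9% proximally. In the distal segment 8 of 12 macrophage markers were at least 2-fold higher and none lower, and in the proximal segment 6 of 12. The log2 of their summed level was 17.42 and 17.15, against 17.34 in the contralateral nerve. In this sum C1qb, the brightest marker, weighs most, and it was at 15.76 and 15.77, against 16.71. The sum can therefore hide rises of dimmer markers. Of 8 neutrophil markers counted, 6 reached 2-fold higher in each segment and 1, Elane, was at least 4.38-fold lower distally. Mmp8, among the distal 6, was not above background in the contralateral nerve, and its bound there was only at least 1.56-fold higher. The summed levels of the neutrophil markers were 15.30 and 14.86, against 11.09. Skeletal muscle markers had summed levels of 12.52 distally and 15.55 proximally, against 10.84. The 7 erythroid markers, which include hemoglobin genes, had summed levels of 19.82 and 19.91, against 19.90, and none was 2-fold apart. Those sums rest on the very bright Hba-a1, Hbb and Hbb-b1, at 17.74 to 18.59 in the nerve. At that height values recur between columns, with 18.59 for Hbb-b1 proximally and for Fth1 in the contralateral nerve. The sums thus had little room to differ and are no measure of the amount of blood. Of 11 markers of myelinating Schwann cells 8 were at least 2-fold lower distally and 6 proximally, and of 7 fibroblast markers 5 and 4. The part of these cells in the values of the members was not tested, and in pooled tissue more or fewer cells of a type and more or less RNA per cell cannot be told apart.

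Set directly against each other, the distal and proximal segments differed by less than 2-fold in all measured members, where 1.24% of all genes were at least 2-fold higher and 2.02% lower in the distal segment (3.26% either way). The largest gap was that of Hmox1, 0.39 ± 0.02 higher distally. Gclc was 0.31 ± 0.05 higher and Txnrd1 0.26 lower (-0.26 ± 0.07), both beyond their technical error. For Mt2A, Tfrc and Nqo1 the gap was smaller than that error.

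In the spinal cord Hmox1 was the single member that differed by 2-fold or more. It had a value of 13.19 in the dorsal hemisection sample, against 9.76 in the C-level control, a difference of 3.44 ± 0.03 or 10.8-fold. This placed it 66th from the top among 12196 genes, of which 10.5% were at least 2-fold higher and 9.27% lower (19.7% either way). The C-level control had the lowest Hmox1 value of all 8 samples. With the scans as recorded the difference was -0.03, but those 2 scans rank as the columns headed unstimulated and 24 h Schwann cells.

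The metallothionein genes, in contrast to the nerve, were high in both cord samples. Mt2A had 17.21 in the dorsal hemisection sample, against 17.12 in the C-level control (0.09 ± 0.02), and its second probe gave 16.33 in each. The matched scans scaled to their 75th percentile gave 0.52 for Mt2A, so the size of its difference depends on the scaling. Mt1 had 15.91 against 16.18 (-0.28 ± 0.05), but 0.09 in favour of the dorsal hemisection sample when the matched scans were scaled to their 75th percentile. Srxn1 likewise had close values, 10.94 against 11.04 (-0.11 ± 0.06). Whether the nerve and the cord differ in this could not be tested with 1 array a group, and the day and the procedure differ too.

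The remaining members lay within 2-fold, below 0 in the value table. Gclc was at -0.31 ± 0.06, Nqo1 at -0.14 ± 0.07, Fth1 at -0.26 ± 0.05 and Tfrc at -0.27 ± 0.06, while all genes had a median of -0.05. The direction is not settled for Fth1, at 0.09 in the matched scans scaled to their 75th percentile, nor for Tfrc, at 0.07 by the mean of its probes. Txnrd1 was at -0.48 ± 0.08 by the probe used and at 1.15 by its dimmer probe, so its direction in the cord is unsettled. As above, 10.5% of all genes were at least 2-fold higher in the cord comparison and 9.27% lower. Macrophage markers were at least 2-fold higher for 11 of 12 genes, with a summed level of 18.18, against 16.75 in the C-level control. Neuron markers were at least 2-fold lower for 7 of 9 genes and fibroblast markers at least 2-fold higher for 5 of 7. Neutrophil markers were at least 2-fold higher for 6 of 8 (summed 12.23, against 10.47) and myelinating Schwann cell markers for 4 of 11. Skeletal muscle markers were at least 2-fold lower for 6 of 8 (summed 12.27, against 13.00) and adipocyte markers for 3 of 3, with Adipoq at least 100.1-fold lower. The erythroid markers summed to 19.72, against 19.79, with the limit given for the nerve. The part of these cells in the Hmox1 value was not tested.

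**Figure D2:**
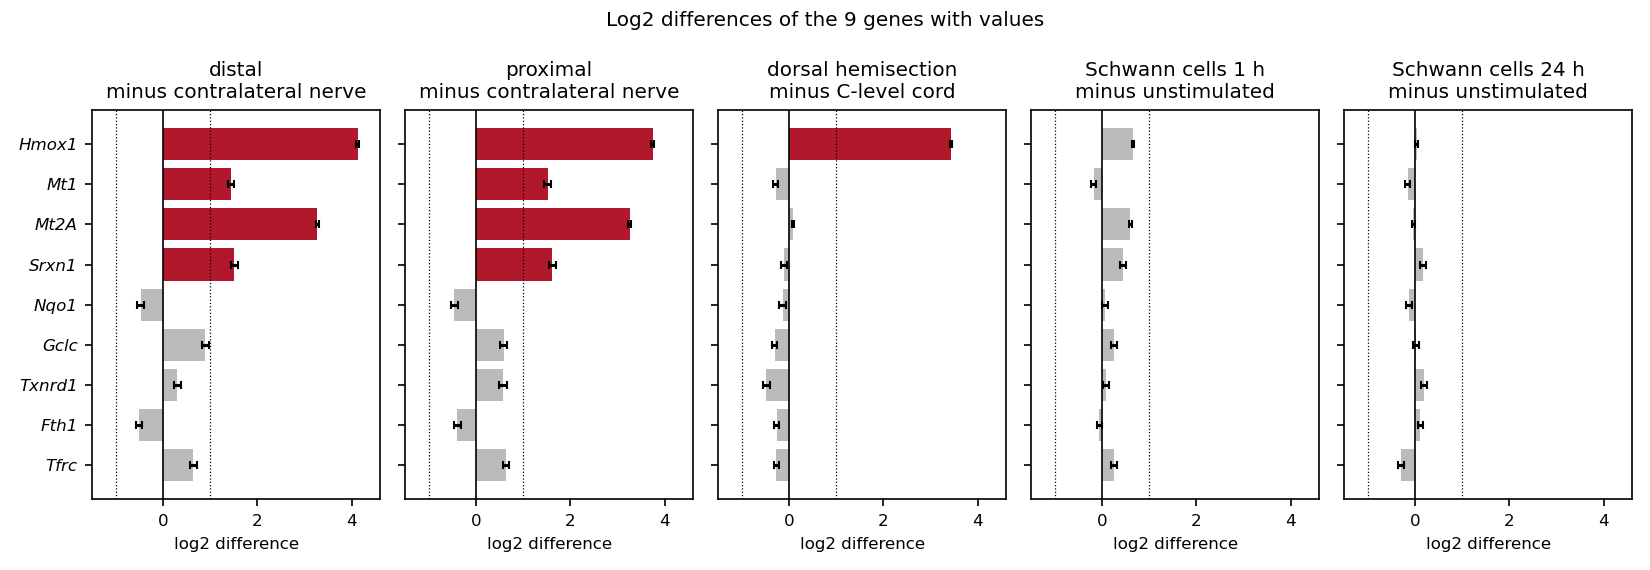
Log2 differences (horizontal axes) of the 9 genes with values in 5 comparisons, with bars for the technical error, dotted lines at 2-fold and red for genes at least 2-fold higher. Hmox1, Mt1, Mt2A and Srxn1 pass 2-fold in both nerve comparisons, Hmox1 alone in the cord, and none in the Schwann cells.

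In Schwann cells given S100A8/A9 no member differed by 2-fold at either time. At 1 h 1.76% of all genes were at least 2-fold higher and 1.66% lower (3.42% either way), and at 24 h 0.717% and 0.744% (1.46% either way). By the probes used, Hmox1 had the highest difference of the set at 1 h. Its values were 11.73 at 1 h and 11.10 at 24 h, against 11.07 in the unstimulated culture, so it was 0.66 ± 0.03 (1.58-fold) higher at 1 h and 0.04 ± 0.03 at 24 h. At 1 h it ranked 412th of 10968 genes. Set directly against the 1 h culture, the 24 h culture was at -0.63 ± 0.02.

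Mt2A followed the same course by the probe used, with 10.10 at 1 h and 9.46 at 24 h, against 9.50 unstimulated (0.60 ± 0.03 and -0.04 ± 0.03). Its second probe did not, with -0.08 and -0.11, so no course of Mt2A is settled. Srxn1 had 10.39 at 1 h and 10.10 at 24 h, against 9.94 (0.45 ± 0.06 and 0.16 ± 0.06). Gclc stood at 0.26 ± 0.06 at 1 h and 0.02 ± 0.07 at 24 h. Of the 9 members 7 were above 0 at 1 h and 5 at 24 h, and the median difference was 0.25 and 0.02, beside -0.02 and 0.00 over all genes.

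Mt1 was at -0.18 ± 0.05 at 1 h and -0.16 ± 0.05 at 24 h. Tfrc had 10.43 at 1 h and 9.88 at 24 h, against 10.18, or 0.25 ± 0.06 and -0.29 ± 0.06. The mean of its probes gave 0.50 and 0.10. Nqo1, Txnrd1 and Fth1 lay between -0.14 and 0.19 at both times by the probes used. The dimmer Txnrd1 probe, above background in all 3 cultures, was at 0.71 at 1 h and 0.11 at 24 h, and at -0.60 for 24 h against 1 h. The unstimulated culture was kept for 24 h, so at 1 h time in culture and the protein cannot be told apart. Between the 24 h and the 1 h culture 2.22% of all genes were at least 2-fold higher and 2.15% lower (4.37% either way), none of them a member.

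**Figure D3:**
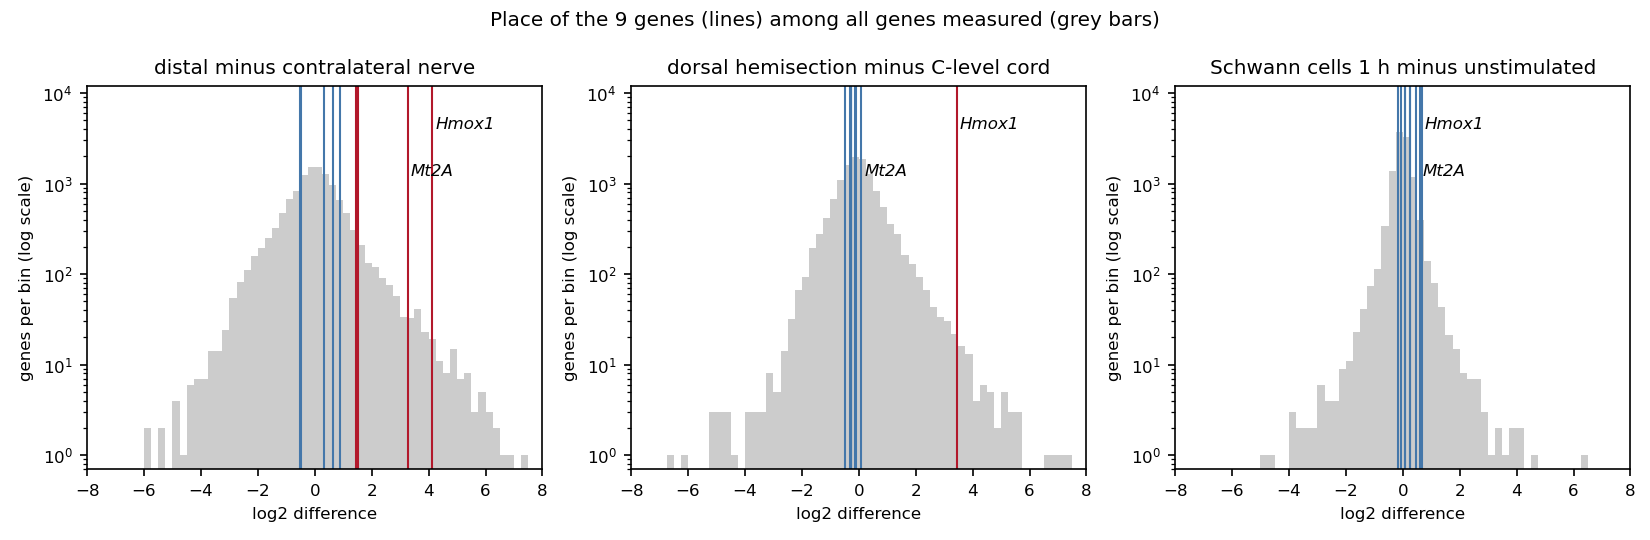
Numbers of genes (vertical axes, log scale) by log2 difference (horizontal axes) in 3 comparisons, as grey bars, with a line for each of the 9 genes, red where at least 2-fold apart and blue otherwise. Hmox1 lies in the upper tail in the distal nerve (4.13) and the dorsal hemisection cord (3.44), and in the Schwann cells at 1 h it lies at 0.66, ranked 412th of 10968.

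Members differed in how far their levels spread over the 8 samples. Mt2A had the widest range, 7.74 log2 units between 17.21 in the dorsal hemisection cord and 9.46 in the 24 h culture, a 214-fold span that was wider than that of 96.3% of genes. This holds for the probe used, while the second Mt2A probe lay between 10.27 and 16.33. Hmox1 spanned 4.56 units and Mt1 4.26, while the other members spanned 1.52 to 2.14. The median range over all genes was 1.84. So 6 of the 9 members varied about as much as a typical gene.

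Unstimulated Schwann cells differed from the contralateral nerve in 5 of the 9 members, where 21.6% of all genes were at least 2-fold higher and 21.2% lower (42.8% either way). Mt2A had 9.50 in the unstimulated culture, against 13.58 in the nerve, a difference of -4.08 ± 0.03, or 16.9-fold lower, and -2.83 by its second probe. Mt1 was at -2.31 ± 0.07, Fth1 at -1.74 ± 0.07 and Tfrc at -1.21 ± 0.07, the last at -0.14 by its second probe, which was not above background in the culture. Txnrd1 was higher in the culture, at 1.29 ± 0.08. Nqo1 (0.98 ± 0.07) and Hmox1 (0.88 ± 0.03) were also higher, within 2-fold, and Gclc was at -0.95 ± 0.08. The 2 kinds of sample differ in the age of the animals, in passage and in the medium as well.

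The contralateral nerve differed from the C-level cord in 3 members, all lower in the nerve, where 18.6% of all genes were at least 2-fold lower and 19.8% higher (38.4% either way). Mt2A was at -3.54 ± 0.03, Mt1 at -1.77 ± 0.07 and Srxn1 at -1.44 ± 0.07. Fth1 was at 0.13 ± 0.07 and Txnrd1 at -0.01 ± 0.09, both inside 2 technical errors. Hmox1 was 0.43 ± 0.04 higher in the nerve. Tfrc was at -0.39 ± 0.07 by the probe used and at -1.52 by its dimmer probe.

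The order of levels over the 8 samples differed between members, and except for Mt2A and Nqo1 nerve and cord samples were mixed in it. For Hmox1 it ran distal nerve, proximal nerve, dorsal hemisection cord, then the 1 h, 24 h and unstimulated cultures, the contralateral nerve and the C-level cord. Only the 24 h and unstimulated cultures were closer than 2 technical errors. For Mt2A both cord samples came first, then the distal and proximal nerve, which were 0.01 apart, then the contralateral nerve and the cultures. For Srxn1 the proximal and distal nerve and the 2 cord samples came first, each within 2 technical errors of its neighbour in the order, and the contralateral nerve was last. For Mt1, Gclc, Fth1 and Tfrc, as for Mt2A, all 3 cultures were lowest, and for Nqo1 and Txnrd1 they were highest.

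Over the 8 samples, which share 1 slide and fall into 3 tissues, Mt1 and Mt2A had a Pearson r of 0.99 and Tfrc and Gclc of 0.98. Txnrd1 and Mt1 had -0.87. Hmox1 had lower coefficients with the other members, between -0.60 with Nqo1 and 0.63 with Srxn1. Among 12765 genes the profiles most like that of Hmox1 were those of Bpifb2 (r = 0.99), the small GTPase gene Rab13 (0.99) and Sdf2l1, of protein folding in the endoplasmic reticulum (0.98). Those most like Mt2A were Pcgf5, Mt1 and Nup210 (0.99 each). Foxk1 (0.98), Nr1i2 (0.98) and Pax8 (0.96) were most like Srxn1, and Rassf5 (0.99), Adora2b (0.98) and Gclc (0.98) most like Tfrc. With 8 points in 3 tissues these values are descriptions of likeness.

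Of 9 regulators of these genes, 2 were at least 2-fold apart in each injured nerve segment. The shares of all genes were 28.2% distally and 23.5% proximally. Nfe2l2, which encodes NRF2, had 12.25 in the distal and 12.08 in the proximal segment, against 12.23 in the contralateral nerve. Keap1, its inhibitor, had 8.47 and 8.45, against 8.55. The gene of the repressor BACH1 was at 5.14 distally and 4.85 proximally and was not well above background in the contralateral nerve, so it was at least 2.55-fold and at least 2.09-fold higher. Cul3, of the ligase that degrades NRF2, was at -1.06 ± 0.07 distally and 8.56 proximally, against 9.52. Among the small MAF partners Maff was at 1.04 ± 0.13 proximally (7.17, against 6.13). Mafg, Mafk and Nfe2l1 were within 2-fold, as was the metal sensor gene Mtf1, with 5.70 and 6.07, against 6.35. Distally 1 regulator was at least 2-fold higher and 1 lower, and proximally 2 and 0.

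In the cord the regulators were at least 2-fold apart for Cul3 (-1.26 ± 0.08) and Bach1, at least 2.06-fold higher in the dorsal hemisection sample and not well above background in the C-level control. Among all genes 19.7% were at least 2-fold apart in the cord. Nfe2l2 was 11.75 in the dorsal hemisection sample, against 11.26. In the cultures none was 2-fold apart at either time, and Nfe2l2 had 10.78 at 1 h and 11.40 at 24 h, against 11.12.

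Genes of zinc handling did not all go with Mt1 and Mt2A. Mt3, the metallothionein gene best known from the nervous system, had 12.34 in the distal and 12.78 in the proximal segment, against 14.95 in the contralateral nerve, or -2.60 ± 0.07 and -2.16 ± 0.07. The nerve segments with more Mt1 and Mt2A signal thus had less Mt3 signal. Slc39a14, a zinc and iron importer, was on the opposite side, with 9.02 and 9.22, against 6.38 (2.64 ± 0.15 and 2.85 ± 0.15). The zinc exporter gene Slc30a1 was at 1.26 ± 0.09 distally and 0.95 ± 0.09 proximally. Of 5 measured genes of this list 2 were at least 2-fold higher and 1 lower distally, and 1 and 1 proximally. Beside these stand 13.9% and 14.3% of all genes distally, and 11.7% and 11.9% proximally. In the cord the importer gene Slc39a8 (1.58 ± 0.08) and Slc30a1 (1.41 ± 0.10) were higher in the dorsal hemisection sample, while Mt3 had 16.01, against 16.21.

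Around heme, 3 of 16 measured genes were at least 2-fold higher distally, 2 proximally, and none was lower. All genes had shares of 13.9% higher and 14.3% lower distally, and 11.7% and 11.9% proximally. Cd163, a macrophage receptor for hemoglobin bound to haptoglobin, had 14.41 distally and 13.34 proximally, against 11.63 (2.77 ± 0.07 and 1.70 ± 0.07). Haptoglobin itself (Hp) was at 2.28 ± 0.08 and 2.42 ± 0.08. Blvra, which turns biliverdin into bilirubin after heme oxygenase has acted, was at 1.18 ± 0.07 distally and 0.63 ± 0.07 proximally. Hmox2, the constitutive heme oxygenase gene, had 11.58 in the distal and 11.47 in the proximal segment, against 11.47. In the cord Hp was higher (2.21 ± 0.09) and Cpox, of heme synthesis, lower (-1.10 ± 0.07) in the dorsal hemisection sample. Hmox2 had 12.29 there, against 13.02 in the C-level control. Cd163 was at 8.32 there, against 7.66, and was not above background in any culture.

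Iron genes were mixed, and in each nerve comparison 2 of 16 reached 2-fold higher and 1 reached 2-fold lower. Together these are below the share of all genes at least 2-fold apart, 28.2% distally and 23.5% proximally. Slc11a1, of the phagosome membrane, was at 2.66 ± 0.09 distally and 1.94 ± 0.09 proximally, and Ireb2, an iron-sensing regulator of ferritin and transferrin receptor mRNA, at 1.55 ± 0.19 and 1.13 ± 0.19. Slc40a1, the iron exporter ferroportin, was at -0.90 ± 0.08 distally and -1.18 ± 0.08 proximally, and Tfr2 at -1.55 ± 0.37 and -0.67 ± 0.37. Tfr2 was very dim, at 2.60 distally, against 4.15 in the contralateral nerve. The lowest value well above background in the distal nerve was 2.50. In the cord 3 of 15 were higher in the dorsal hemisection sample and none lower, beside 10.5% and 9.27% of all genes. The 3 were Slc11a1 (1.98 ± 0.08), Steap4 (1.55 ± 0.07) and Slc40a1 (1.50 ± 0.08). In the cultures at 1 h the ferroxidase gene Heph was at 1.11 ± 0.33, from dim signals of 5.81, against 4.70 unstimulated. Ftl1, the ferritin light chain gene, had 18.00 in the distal and 17.85 in the proximal nerve, against 17.93.

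**Figure D4:**
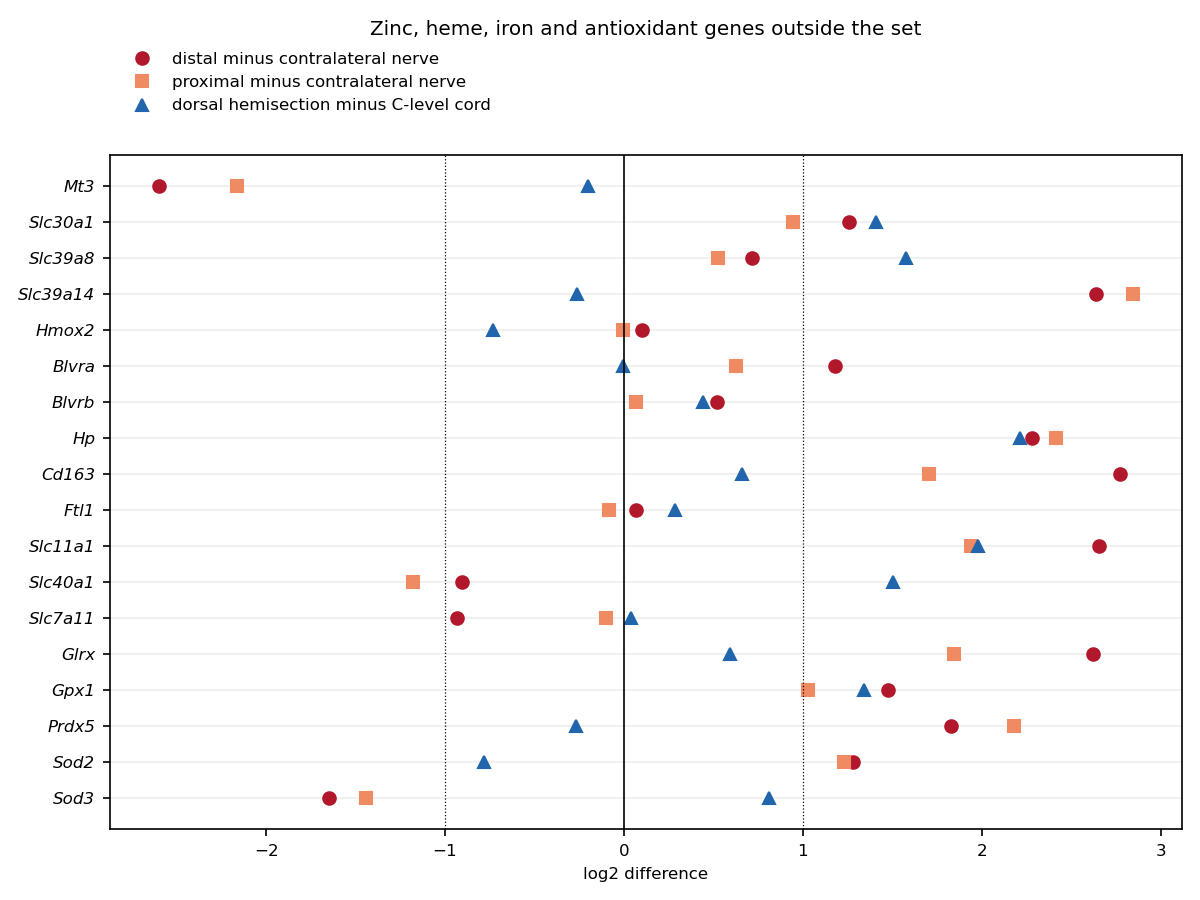
Log2 differences (horizontal axis) of zinc, heme, iron and antioxidant genes outside the set in both nerve comparisons and in the cord, 1 array a group, with dotted lines at 2-fold; the genes plotted were chosen after their values were seen. Mt3 lies at -2.60 and -2.16 in the nerve and Slc39a14 at 2.64 and 2.85, while Hp is above 2 in all 3 comparisons.

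Of 21 genes of the glutathione, thioredoxin and peroxiredoxin systems 3 were at least 2-fold higher and 3 lower in each nerve comparison. These counts are near the shares of all genes, 13.9% higher and 14.3% lower distally and 11.7% and 11.9% proximally. Glrx, a glutaredoxin, was at 2.62 ± 0.03 distally and 1.84 ± 0.03 proximally, and the peroxiredoxin gene Prdx5 at 1.83 ± 0.07 and 2.18 ± 0.07. The glutathione transferase gene Gsta4 was at -2.35 ± 0.07 and -1.75 ± 0.07, and the plasma glutathione peroxidase gene Gpx3 at -1.62 ± 0.07 and -1.12 ± 0.07. Gpx1, a cytosolic glutathione peroxidase, was at 1.48 ± 0.03 and 1.03 ± 0.03, and Txnip, a thioredoxin inhibitor, at -1.10 ± 0.07 and -1.37 ± 0.07. Of the superoxide dismutases, mitochondrial Sod2 was at 1.28 ± 0.07 distally and 1.23 ± 0.07 proximally and extracellular Sod3 at -1.65 ± 0.07 and -1.44 ± 0.07. The catalase gene Cat was at -0.84 ± 0.08 distally and -1.10 ± 0.09 proximally. In the cord Gpx1 alone of the 21 passed 2-fold (1.34 ± 0.02), where 19.7% of all genes did. In the cultures at 1 h Txnip alone did (-1.14 ± 0.06).

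Among 5 measured genes that supply NADPH none was higher and only Me1 was lower in the nerve segments (-1.44 ± 0.03 distally and -1.25 ± 0.03 proximally). By the same 2-fold count 14.3% of all genes were lower distally and 11.9% proximally. Of 9 other detoxification genes Ugdh was higher (1.59 ± 0.07 and 1.63 ± 0.07), and Ephx1 (-1.94 ± 0.09 and -1.59 ± 0.08) and Aldh3a1 (-1.73 ± 0.08 and -1.72 ± 0.08) were lower. In the cord the transporter gene Abcc4 alone of the 9 passed 2-fold (1.08 ± 0.07). The subunits of the phagocyte oxidase, which makes superoxide, were higher: 4 of 4 distally, 3 of 4 proximally and 4 of 4 in the dorsal hemisection cord. At least 2-fold higher were 13.9%, 11.7% and 10.5% of all genes. Ncf1 was at 1.98 ± 0.07, 1.50 ± 0.07 and 2.44 ± 0.06 in these comparisons, and Cybb at 2.01 ± 0.08, 1.30 ± 0.08 and 2.56 ± 0.14. These subunits are known from macrophages and neutrophils, whose markers differed in the same comparisons, and their part in these values was not tested.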

How the data were processed

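The authors' deposited value table holds log2 values for 24894 probes and 44 controls, and all its columns have the median 8.03. No source used here gives its normalization, its offset or its choice of probes. Identical values recur in different columns for different genes, as 18.20 for Fth1 in the proximal nerve and for Hbb-b1 in the C-level cord. That is the pattern of values set by rank within a column. Small differences between very bright genes, such as Fth1, Mt1 and Mt2A, may therefore reflect rank and not amount. Linear intensity per spot comes from the deposited scanner files. Per the file headers these were written by Feature Extraction 10.7.3.1, and the submitters' processing notes have version 10.5. Accessions were matched to RefSeq symbols of GRCr8 (18006 of 30367 probes matched). The headers name another build, so coordinates belong only to the printed promoters.

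Log2 differences were taken between columns for genes whose probe was well above background, in at least 0.5 of its spots, on at least 1 of the 2 arrays. The rule first asked for more than 0.5 and was changed after the numbers of genes kept were seen. The division of the technical error by the number of spots was also added late. Flags came from the scan ranking as the column does. The technical error is the root mean square SD of the 200 replicated probes nearest in brightness, divided by the root of the number of spots and combined over both arrays. A bound ("at least") sets the brighter value against the higher of the dim value and the lowest value well above background. Genes at least 2-fold apart were counted beside the share of all genes.

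Members and lists were chosen with earlier results of these data known. From each list the text names all regulators, and otherwise up to 4 genes with the largest difference of at least 2-fold in a comparison, with some others chosen after their values were seen. The 3 genes with the highest Pearson r were named for Hmox1, Mt2A, Srxn1 and Tfrc. The counting and motif steps were tested on simulated data. Alternatives were 75th percentile scaling, normexp (offset 50, limma 3.58.1, on the median signal, since the scanner files used have no mean signal), scans as recorded, the mean of probes, 2 other filters and, added after seeing the data, the first flag rule.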

Additional observations from a re-analysis of the deposited data

Results flagged for a closer look

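Tfrc in the Schwann cells was flagged because its 2 times against the same unstimulated culture had opposite signs, each beyond 2 technical errors, a condition set after the values were seen: 0.25 ± 0.06 at 1 h and -0.29 ± 0.06 at 24 h. The difference between the times was not tested, and a second probe was above 0 at both (0.75 and 0.49) but not well above background in the unstimulated culture. Gclm, the modifier subunit gene of glutathione synthesis, was flagged as a signal outside the value table: its probe was well above background on 4 of the 8 scans, those matching the distal and proximal nerve and the Schwann cells at 1 h and 24 h. Relative to the 75th percentile its log2 signal lay between -7.19 and -6.10 over the 8 scans, which is dim, and no difference is given.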

How the results depend on the processing

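No paired analysis was possible because every group had 1 array, and no array could be left out. All arrays lay on 1 slide, so it could not serve as a block. Over the 9 comparisons 17 differences of the members were at least 2-fold. All 17 kept their direction under the 6 alternatives that keep the column headings, and all stayed at least 2-fold except Tfrc in unstimulated Schwann cells against contralateral nerve, which the mean of probes moved to -0.68. That setting also took Tfrc past 2-fold in the distal and proximal nerve. The filters and the flag rule among the 6 only choose which genes are kept, so they could not alter a member's value. The mean of probes could alter only the 4 members with several probes. For the other members only 75th percentile scaling and normexp could move a value. Over the 6 alternatives Hmox1 ranged between 4.10 and 4.23 distally, 3.73 and 3.78 proximally and 3.26 and 3.44 in the cord, and Mt2A between 3.00 and 3.50 distally. The flag rule first used, more than 0.5 of a probe's spots, was added to these after the data were seen. It kept 11939 genes in the distal comparison instead of 12131. As a filter it could not alter a member's value, and it dropped no member, so no count changed. Of all 81 values, which include these 17, some had the other sign under 75th percentile scaling (5), normexp (2) and the mean of probes (6). All of those were differences within 2-fold. Scaling to the 75th percentile moved the median of all genes to 0.09, against 0.22, for unstimulated Schwann cells minus contralateral nerve, and to -0.01, against 0.09, for contralateral nerve minus C-level cord.

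With each scan assigned to the sample it is recorded under, other arrays were compared, some across tissues by the headings. Members at least 2-fold apart were then 1 (instead of 4) for distal against contralateral nerve and 7 (instead of 0) for distal against proximal nerve. In the cord they were 0 (instead of 1). In the Schwann cells they were 4, 2 and 3 (instead of 0 each) for 1 h against unstimulated, 24 h against unstimulated and 24 h against 1 h. For unstimulated Schwann cells against contralateral nerve they were 0 (instead of 5), and for contralateral nerve against C-level cord 7 (instead of 3). The pair recorded as cord ranks as the unstimulated and 24 h cultures, with 1.46% of all genes 2-fold apart by the headings. The pair recorded as 1 h and unstimulated ranks as contralateral and proximal nerve (23.5%), and that as 24 h and 1 h as C-level cord and contralateral nerve (38.4%). No share is given for the other pairs, so the counts are no results about the members. Of the 17 differences 11 turned round. The scans recorded as proximal and contralateral nerve rank as the 1 h culture and the dorsal hemisection cord. Between them Hmox1 was at -1.21, Mt1 at -3.68, Mt2A at -7.12, Srxn1 at -0.48, Fth1 at -1.71 and Txnrd1 at 1.53. Mt2A was at -0.22 for the distal nerve against that cord scan. Hmox1 was at -0.0309 for the 2 culture scans recorded as cord. The pair recorded as contralateral nerve and C-level cord ranks as the dorsal hemisection cord and the 24 h culture. There Mt1 was at 3.71, Mt2A at 7.80 and Srxn1 at 0.80. The pair recorded as unstimulated Schwann cells and contralateral nerve ranks as the proximal nerve and the dorsal hemisection cord. There Mt1 was at 0.42 and Tfrc at 0.59. With 1 array a group the spread between animals is unknown. By the probes used all 9 genes were well above background on every array, while the dimmer second probes of Txnrd1 and Tfrc gave other values.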
